A study of Homo sapiens with 4 samples.

Results

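The genes described here encode the enzymes that write, copy and remove DNA methylation: the maintenance methyltransferase DNMT1, the de novo methyltransferases DNMT3A and DNMT3B, the DNMT1 cofactor UHRF1 and its paralog UHRF2, and the dioxygenases TET1, TET2 and TET3. They were taken as a list of 8 genes, chosen with earlier results of these data known. A probe set is the group of short array probes read out as 1 signal. It counted as a member when the platform annotation gave it 1 gene only and that gene was on the list. This left 15 probe sets of 54613 that are not controls: 3 each for DNMT3A, TET2 and TET3, 2 for TET1, and 1 each for DNMT1, DNMT3B, UHRF1 and UHRF2. The cells were Kit225, an established human leukemic T cell line that needs interleukin-2 and was grown with it. Samples 1 and 2 of the NC1153 group were exposed for 12 hours to NC1153, an inhibitor of the kinase JAK3, at a dose the labels give as 25 mM, and samples 1 and 2 of the DMSO group received this solvent at 0.1% for the same time. Kit225 is a single tumour line, and nothing states whether the 2 samples of a group were separate cultures, so every p-value measures only the spread between these samples.

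Methyl groups on cytosine are placed mostly at CG dinucleotides, on both strands. After replication the new strand lacks them: UHRF1 binds such hemimethylated sites and brings DNMT1, which restores the mark. DNMT3A and DNMT3B can methylate sites that carried no mark, and the TET enzymes oxidise methylcytosine, which opens the way to its loss by dilution or by base excision repair. DNMT3A and TET2 are also known as genes that are often mutated in blood cell tumours; no genotype was examined here.

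Expression of the copying arm was lower with NC1153. UHRF1 fell by 1.44 on the log2 scale and DNMT1 by 0.89, and of the erasers TET1 fell by 1.13. DNMT3A lay higher on all of its 3 probe sets, with a log2 change of 0.82 on the brightest, but did not pass the threshold. TET3 had a log2 change of -0.50 on its brightest probe set and did not pass either. UHRF2, DNMT3B and TET2 gave changes between -0.07 and 0.24 on their brightest probe sets, also not past it. The test, limma on log2 signals, covered all 54613 probe sets, and a call needed a p under 0.05 after Benjamini-Hochberg adjustment. It called 3 of the 15 probe sets lower, against 1.78% of all probe sets, and 0 of the 15 higher, against 1.94%. These shares include dim probe sets, which were seldom called: 969 of the 971 lower calls lay above the median signal. So did 11 of the 15 members. At an unadjusted p under 0.05, passed by 8653 of all 54613 probe sets in either direction, 4 of the 15 were lower and 2 higher. By gene, with each gene read from its brightest probe set, 3 of the 8 were lower, against 2.84% of the 19775 genes measured, and 0 were higher, against 3.09%, with p-values still adjusted over all 54613 probe sets. In a fit of those 19775 probe sets alone, with its own adjustment, DNMT3A was also called, as higher (limma adjusted p = 0.033). The median log2 change over the 8 genes was -0.28, beside 0.0020 over all genes.

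Facts about the arrays bear on these values. The NC1153 replicate 1 array had been scaled by a factor of 6.681 and the others by 2.656 to 2.967, per the file header. All 18 spike-in control probe sets (bacterial and phage transcripts) had a higher mean with NC1153, by a median of 0.42 on the log2 scale. Centring the arrays on these controls (spike-in centring) shifts the median change of all probe sets to -0.41, so a change given with that setting is read against -0.41. Of the cell line's T cell markers, CD2 (signals of 9145 and 6388 with NC1153, 12528 and 10446 with DMSO), CD4 and IL2RA were bright, whereas CD3D, CD3E, CD3G and LCK lay below the median of all probe sets. The summed signals of 9 T cell markers were 29455 and 25498 with NC1153, below 32245 and 32169 with DMSO. Most of this sum came from IL2RA (log2 change -0.0078) and CD2 (-0.58). The log2 change was negative for 5 of the 9, with a median of -0.0078 and a range from -2.08 (CD3G) to 1.77 (CD3D). The summed signals of 5 B cell markers ran from 308 to 581 with NC1153 and from 331 to 430 with DMSO. Those of 6 myeloid markers ran from 1152 to 1710 with NC1153 and from 1543 to 2207 with DMSO, most of it from S100A8. Those of 3 erythroid markers ran from 194 to 510 with NC1153 and from 273 to 278 with DMSO. Of these 23 markers limma called 0 in either direction, against 2.84% of all genes lower and 3.09% higher. At an unadjusted p under 0.05, passed by 8653 of all 54613 probe sets, 2 T cell markers, CD2 and CD4, were lower. The part of the marker differences in the results was not tested. Fewer cells expressing a gene and less of its RNA per cell cannot be told apart in these bulk samples.

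One start site window of each of the 3 genes that fell is shown, the first that RefSeq's table lists for the gene; which start was used was not measured. The windows come from RefSeq on GRCh38.p14 and run from 250 bases before to 50 after a gene's start on its own strand. The table matched all 8 genes, with 19 windows, since several genes have more than 1 annotated start. Capitals mark matches to TTTCCCGC or TTTGGCGC, 2 forms of the site bound by E2F factors, searched on both strands.
UHRF1, chr19:4909251-4909550, plus strand: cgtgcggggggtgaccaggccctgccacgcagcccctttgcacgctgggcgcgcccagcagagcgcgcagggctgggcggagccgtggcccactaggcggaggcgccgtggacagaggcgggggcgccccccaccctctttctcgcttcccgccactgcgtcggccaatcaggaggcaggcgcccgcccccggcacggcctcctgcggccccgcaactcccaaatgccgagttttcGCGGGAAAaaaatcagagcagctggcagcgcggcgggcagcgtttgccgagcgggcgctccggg
DNMT1, chr19:10194904-10195203, minus strand: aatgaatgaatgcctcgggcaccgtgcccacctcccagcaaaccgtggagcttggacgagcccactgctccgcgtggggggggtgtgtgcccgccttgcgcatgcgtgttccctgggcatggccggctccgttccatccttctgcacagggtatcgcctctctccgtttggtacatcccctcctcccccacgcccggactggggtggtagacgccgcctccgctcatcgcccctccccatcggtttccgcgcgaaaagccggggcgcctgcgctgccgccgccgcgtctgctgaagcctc
TET1, chr10:68560087-68560386, plus strand: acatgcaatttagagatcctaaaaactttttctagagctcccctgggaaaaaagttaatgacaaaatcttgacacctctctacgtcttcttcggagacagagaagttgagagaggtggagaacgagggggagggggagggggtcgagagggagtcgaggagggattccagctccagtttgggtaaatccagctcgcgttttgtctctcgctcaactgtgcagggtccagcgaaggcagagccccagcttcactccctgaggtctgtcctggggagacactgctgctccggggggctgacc

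The UHRF1 window held 1 match, to TTTCCCGC on the opposite strand, beginning 14 bases before the start. It was the only match to either form among the 19 windows. Of all 35116 windows of this length, 1.63% held that form and 2.27% either of the 2. The form TTCNNNGAA, which STAT factors bind, was in none of the 19 windows and in 7.66% of all. A match is a run of letters and shows no binding, and the absence of one says nothing about a factor. CG dinucleotides numbered 36 in this UHRF1 window, 30 in that of DNMT1 and 10 in that of TET1, where the median of all windows was 14. Over all 3 windows of UHRF1 they numbered 36 to 46, and over all 3 of TET1 6 to 11. The other 2 UHRF1 windows held neither of these 2 forms. Other forms of the E2F site were not searched, so a window without capitals may still hold one.

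UHRF1, which recognises hemimethylated DNA, had signals of 2910 and 2583 on NC1153 arrays 1 and 2, against 7554 and 7360 on DMSO arrays 1 and 2. The groups were far apart relative to the spread within them, which was 1.13-fold between the NC1153 arrays and 1.03-fold between the DMSO arrays. The group means were 2746 ± 232 with NC1153 and 7457 ± 137 with DMSO (SD, n = 2 each). The log2 change was -1.44, with a standard error of 0.13 and a 95% interval from -1.74 to -1.14 (limma adjusted p = 0.0013). This is a decrease of signal to 0.368 of the DMSO level. The change was -1.38 within replicate 1 and -1.51 within replicate 2, and -1.53 to -1.36 in the fits that left out 1 array. The authors' deposited table, made by another method (RMA) from the same arrays, gives UHRF1 log2 values of 9.67 and 9.79 with NC1153 against 11.30 and 11.19 with DMSO, a change of -1.52.

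UHRF2, the paralog which does not replace UHRF1 in maintenance, was not called. Its signals were 3028 and 3400 with NC1153 and 3122 and 3590 with DMSO, so the groups overlapped. The log2 change was -0.06, with a 95% interval from -0.39 to 0.26 (limma adjusted p = 0.92). The log2 ratio of the UHRF1 to the UHRF2 signal, in which any scaling of a whole array cancels, was -0.06 and -0.40 with NC1153 and 1.27 and 1.04 with DMSO. The ratio's difference was -1.38, and its groups did not overlap. With 2 arrays against 2, the exact permutation test cannot go below p = 0.333, the value reached for this ratio and for each of the 3 other ratios computed (4 in all, adjusted p = 0.333).

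DNMT1, the enzyme that UHRF1 brings to new DNA, had signals of 3275 and 3923 with NC1153, against 6331 and 6971 with DMSO. Both NC1153 arrays lay well below both DMSO arrays, with means of 3599 ± 458 with NC1153 and 6651 ± 452 with DMSO (SD, n = 2 each). The log2 change was -0.89, with a standard error of 0.14 and a 95% interval from -1.21 to -0.57 (limma adjusted p = 0.012). It was -0.95 within replicate 1 and -0.83 within replicate 2, and -1.02 to -0.76 in the fits that left out 1 array. In the authors' deposited table the change is -0.77.

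DNMT3A, a writer of new marks, is covered by 3 probe sets that all lay higher with NC1153. The brightest had signals of 733 and 625 with NC1153, against 371 and 397 with DMSO. Its groups did not overlap, and its log2 change was 0.82 with a 95% interval from 0.34 to 1.30 (limma adjusted p = 0.076). The second had 148 and 89.2 with NC1153 and 35.3 and 15.6 with DMSO, a log2 change of 2.29 with an interval from 0.42 to 4.16 (limma adjusted p = 0.21). The other had 34.4 and 78.7 with NC1153 and 25.0 and 11.8 with DMSO (log2 change 1.60, limma adjusted p = 0.55). The last 2 were below the median of all probe sets, and their intervals were wide.

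Whether DNMT3A counts as changed depends on the fit. Its brightest probe set passed with the replicate number as a block (limma adjusted p = 0.032), in a fit of the 27307 brighter probe sets (0.036) and in a fit of 1 probe set per gene (0.033). It did not pass in any of the 4 fits that left out 1 array (0.076 to 0.32), and with spike-in centring its log2 change was 0.39 (adjusted p = 0.52). The authors' deposited table, which lists probe sets past their q-value limit of 0.05, includes the brightest probe set with a change of 0.73 and a raw p of 0.0017. The log2 ratio of the DNMT1 to the DNMT3A signal was 2.16 and 2.65 with NC1153 and 4.09 and 4.13 with DMSO, a difference of -1.71.

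DNMT3B, the other de novo enzyme, had signals of 231 and 192 with NC1153 and 245 and 198 with DMSO. The replicates differed more than the groups did. The log2 change was -0.07, with a 95% interval from -0.79 to 0.66 (limma adjusted p = 0.96), which spans changes in either direction. The log2 ratio of the DNMT1 to the DNMT3B signal was 3.83 and 4.36 with NC1153 and 4.69 and 5.14 with DMSO, a difference of -0.82. DNMT3L, the catalytically inactive relative that stimulates the de novo enzymes, was dim, at 18.9 and 9.23 with NC1153 and 7.72 and 7.48 with DMSO.

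**Figure D1:**
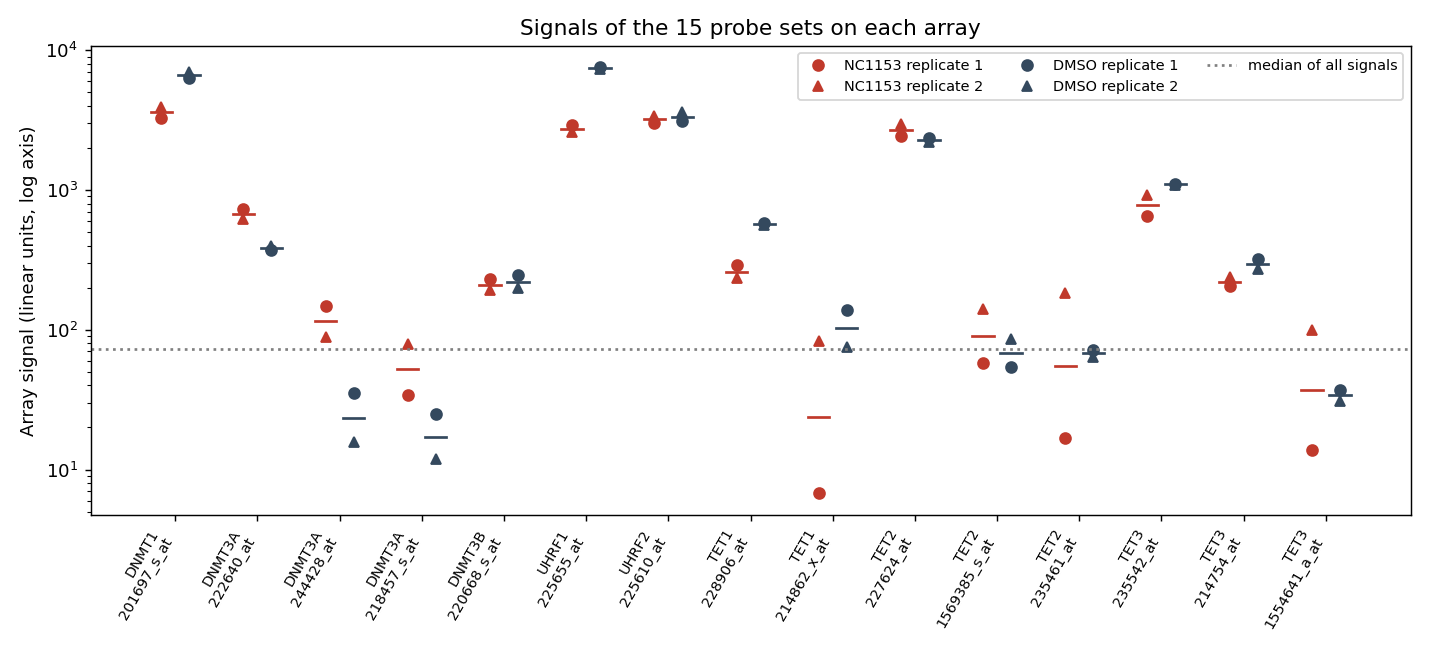
Array signal (log axis) of each of the 15 probe sets, NC1153 left of DMSO in each pair, with circles for replicate 1, triangles for replicate 2 and a bar at the geometric mean. The NC1153 points of UHRF1 (2910 and 2583), DNMT1 and the brighter TET1 probe set lie below their DMSO points, those of DNMT3A lie above, and the NC1153 points of the dim TET probe sets are spread over up to 12.4-fold.

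Among the erasers, TET1 was read by 2 probe sets. The brighter had signals of 288 and 234 with NC1153, against 583 and 557 with DMSO. Both NC1153 arrays lay below both DMSO arrays, with means of 261 ± 38.8 with NC1153 and 570 ± 17.8 with DMSO (SD, n = 2 each). The log2 change was -1.13, with a standard error of 0.24 and a 95% interval from -1.68 to -0.59 (limma adjusted p = 0.035). The call was lost when any 1 of the 4 arrays was left out: adjusted p = 0.057 without NC1153 replicate 1, 0.069 without NC1153 replicate 2, 0.16 without DMSO replicate 1 and 0.082 without DMSO replicate 2, with changes from -1.29 to -0.98. The change was -1.14 in the authors' deposited table. The other probe set, whose suffix (_x_at) marks probes that may also bind other transcripts, had 6.76 and 83.7 with NC1153 and 139 and 75.8 with DMSO. Its NC1153 arrays differed 12.4-fold, its log2 change of -2.11 had a 95% interval from -4.75 to 0.53, and it went opposite ways in replicates 1 and 2 (-4.36 and 0.14).

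TET2, the TET enzyme best known in blood cells, had signals of 2446 and 2966 on its brightest probe set with NC1153 and 2355 and 2216 with DMSO. The NC1153 arrays lay above the DMSO arrays by a margin smaller than the difference between them. The log2 change was 0.24, with a 95% interval from -0.10 to 0.58 (limma adjusted p = 0.53), and -0.19 with spike-in centring. It was 0.05 within replicate 1 and 0.42 within replicate 2, and 0.38 without NC1153 replicate 1 but 0.099 without NC1153 replicate 2. On the second the signals were 58.0 and 141 with NC1153 and 54.2 and 86.2 with DMSO, and on the other 16.9 and 183 with NC1153 and 72.1 and 63.7 with DMSO. Both overlapped between groups, with log2 changes of 0.40 and -0.29. The log2 ratio of the TET1 to the TET2 signal (brightest probe sets) was -3.08 and -3.67 with NC1153 and -2.02 and -1.99 with DMSO, a difference of -1.37.

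TET3 lay lower on its 2 brighter probe sets. The brightest had 652 and 922 with NC1153, against 1107 and 1083 with DMSO, a log2 change of -0.50 with a 95% interval from -0.96 to -0.04 (unadjusted p = 0.037, limma adjusted p = 0.27). The difference was -0.76 within replicate 1 and -0.23 within replicate 2. The second had 206 and 237 with NC1153, against 323 and 274 with DMSO (log2 change -0.43, limma adjusted p = 0.56). In both the groups did not overlap, and neither passed. The other had 13.8 and 99.998 with NC1153 and 37.3 and 31.0 with DMSO, with groups that overlapped and a log2 change of 0.13.

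**Figure D2:**
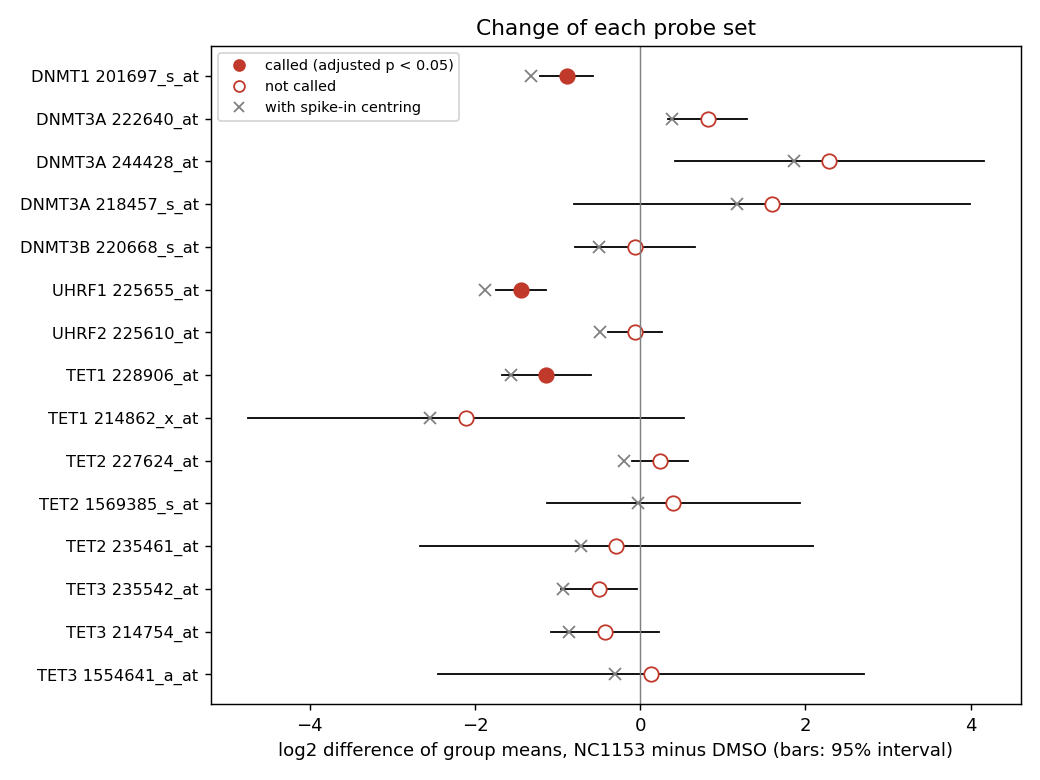
Log2 difference of NC1153 minus DMSO for each of the 15 probe sets (circles, filled where limma called it), with bars for the 95% interval and crosses for the value with spike-in centring. UHRF1, DNMT1 and the brighter TET1 probe set, at -1.44, -0.89 and -1.13, are the filled points. Spike-in centring shifts whole arrays, so it moves all 15 probe sets left by the same amount, and the crosses are read against -0.41.

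Over the 15 probe sets, both NC1153 arrays lay below both DMSO arrays in 5, against 21.2% of all probe sets, and above in 4, against 22.8%. The remaining 6 overlapped. Precision followed brightness. The 9 brighter probe sets, with signals of 192 to 7554, had standard errors of 0.13 to 0.32 on the log2 scale, and their NC1153 arrays differed by 1.12- to 1.41-fold. The 6 dimmer ones, with signals of 6.76 to 183, had standard errors of 0.68 to 1.17, and their NC1153 arrays differed by 1.66- to 12.4-fold. The line between them, at the 60th percentile of mean signal, was set after the values were seen.

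**Figure D3:**
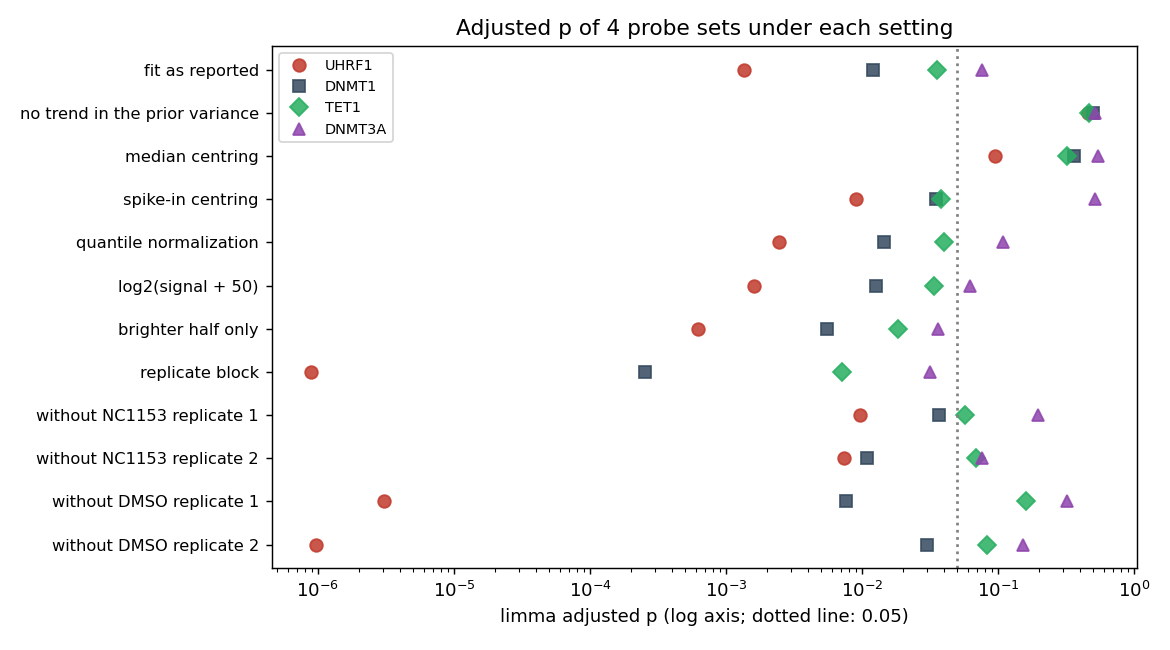
Adjusted p (log axis) of the brightest probe set of UHRF1, DNMT1, TET1 and DNMT3A under the fit as reported and 11 other settings, with the threshold of 0.05 dotted. UHRF1 and DNMT1 pass in 9 of the 11, TET1 in 5, and all miss without the variance trend and with median centring.

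The other genes of the pathway were read from lists, each gene by its brightest probe set. These lists, too, were chosen with earlier results of these data known. The shares over all genes given beside them include dim genes, which were seldom called. Of 12 genes listed as partners of UHRF1 and DNMT1 at replicated DNA, 4 fell, against 2.84% of all genes, and 0 rose, against 3.09%. The other 8 did not pass, and the median log2 change of the 12 was -0.26, beside 0.0020 over all genes. These 8 include the dim DNMT3L, described above as a relative that stimulates the de novo enzymes. HELLS, a chromatin remodeller needed for methylation of repeats, had signals of 507 and 562 with NC1153, against 1980 and 1924 with DMSO, a log2 change of -1.87 (limma adjusted p = 0.0011), although 1 of the 4 further HELLS probe sets went the other way. PCNA, the sliding clamp that tethers DNMT1 to the replication fork, had signals of 7046 and 8273 with NC1153, against 13450 and 13537 with DMSO (log2 change -0.82, limma adjusted p = 0.013; 0.052 without DMSO replicate 1). The corepressor gene TRIM28 and the histone deacetylase gene HDAC1 changed by -0.62 and -0.56 (limma adjusted p = 0.042 and 0.049). Both of these calls were lost in at least 3 of the 4 fits that left out 1 array (adjusted p up to 0.35 for TRIM28 and 0.51 for HDAC1). TRIM28 also missed with spike-in centring (0.055), which left 3 partners lower, and HDAC1 with log2(signal + 50) (0.055).

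Genes listed as readers of the mark gave no call. Of 7 genes measured from the methyl-CpG binding protein families, limma called 0 in either direction. This is near the shares over all genes, 2.84% lower and 3.09% higher. At an unadjusted p under 0.05, passed by 8653 of all 54613 probe sets, 1 was lower and 2 were higher (median log2 change 0.15). MBD4, a glycosylase that binds methylated CG sites, had a log2 change of 0.55 (limma adjusted p = 0.059) and MBD3 of -0.43 (0.19). Among 11 base excision and active demethylation genes 3 fell and 0 rose, against 2.84% and 3.09% of all genes, and 8 did not pass (median -0.14). UNG, the uracil glycosylase, had signals of 853 and 1034 with NC1153, against 3825 and 3331 with DMSO, a log2 change of -1.93 (limma adjusted p = 0.00094). TDG, the glycosylase that removes the oxidised bases the TET enzymes make, had 4104 and 3608 with NC1153, against 6675 and 6049 with DMSO (log2 change -0.72, limma adjusted p = 0.023). GADD45B fell by 1.49 on the log2 scale (limma adjusted p = 0.029). Without DMSO replicate 1, TDG did not pass (adjusted p = 0.18), nor did GADD45B (0.15), which also missed without NC1153 replicate 1 (0.079) and without DMSO replicate 2 (0.079).

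TET enzymes need 2-oxoglutarate, and DNA methyltransferases need S-adenosylmethionine. Of 11 TET partners and 2-oxoglutarate enzymes, 2 rose and 2 fell, against 3.09% and 2.84% of all genes, and 7 did not pass (median -0.10). IDH1, the cytosolic isocitrate dehydrogenase that makes 2-oxoglutarate, had signals of 4205 and 4009 with NC1153, against 1573 and 1696 with DMSO (log2 change 1.33, limma adjusted p = 0.0020; 0.066 with spike-in centring). OGT, the glycosyltransferase that binds TET proteins, rose by 0.62 (limma adjusted p = 0.044; 0.71 with spike-in centring). The mitochondrial genes IDH3A, which makes 2-oxoglutarate, and OGDH, which consumes it, fell by 0.90 and 1.00 on the log2 scale (limma adjusted p = 0.011 and 0.046). OGT missed the threshold in all 4 fits without 1 array (adjusted p = 0.052 to 0.48), and OGDH in 3 of them (up to 0.20). Of 13 methyl donor supply genes MAT2A fell, MTRR rose and 11 did not pass (median 0.46), so 1 was called in each direction, against 2.84% of all genes lower and 3.09% higher. MAT2A, the S-adenosylmethionine synthetase of most cells outside the liver, had 4006 and 3462 with NC1153, against 6284 and 7438 with DMSO (log2 change -0.88, limma adjusted p = 0.014; 0.059 without DMSO replicate 2). MTRR, which keeps methionine synthase active, changed by 0.75 (limma adjusted p = 0.032), and its call was lost with spike-in centring (0.47), without NC1153 replicate 1 (0.094) and without DMSO replicate 1 (0.14).

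UHRF1 and DNMT1 are known as genes expressed most around S phase, so a list of S phase genes was read beside them. Of 19 measured, 7 fell and 1 rose, against 2.84% and 3.09% of all genes, and 11 did not pass. The median was -0.57, beside 0.0020 over all genes. The 4 with the smallest p were MCM7 (-1.47), CCNE2 (-1.61), FEN1 (-1.28) and MCM4 (-1.01, signals of 2323 and 2439 with NC1153, against 4893 and 4727 with DMSO; limma adjusted p = 0.0051). MCM5, another subunit of the same helicase, was the one that rose, by 0.81 (limma adjusted p = 0.011), and it did not pass with spike-in centring (0.38) or without DMSO replicate 1 (0.11). The part of S phase genes in the changes of UHRF1 and DNMT1 was not tested.

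Germline genes that promoter methylation keeps silent in somatic cells gave no call. Of 18 measured, limma called 0, against 2.84% of all genes lower and 3.09% higher. At an unadjusted p under 0.05, passed by 8653 of all 54613 probe sets, 1 was lower and 0 were higher (median log2 change 0.13). Those with the largest changes were dim: MAGEC1 had 22.7 and 3.17 with NC1153 and 102 and 31.2 with DMSO (log2 change -2.74, adjusted p = 0.37), and MAGEA4 had 72.8 and 35.1 with NC1153 and 9.32 and 10.4 with DMSO (log2 change 2.36, adjusted p = 0.35). PRAME, a brighter member, changed by -0.45 (adjusted p = 0.31). Most of the 18 genes lay below the median signal. Above it lay 969 of the 971 lower and 1045 of the 1062 higher calls over all probe sets. The lack of calls therefore says little about these genes. DNA methylation itself was not measured.

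**Figure D4:**
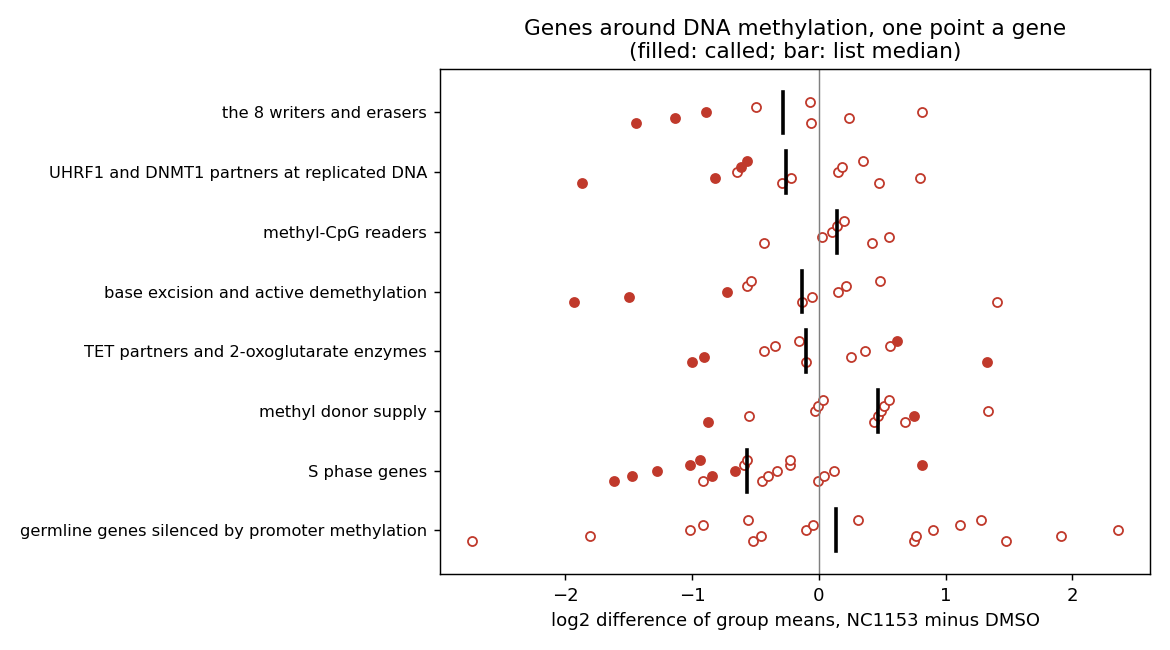
Log2 difference of NC1153 minus DMSO for each gene of 8 lists (1 point a gene by its brightest probe set, filled where called, with a bar at the list median). UHRF1 partners and S phase genes hold 4 and 7 filled points on the left, the TET partner list has 2 on each side, and no reader or germline gene is filled.

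The 5 genes whose log2 signals, centred on their own mean, ran closest to those of UHRF1 over the 4 arrays were WNT8A, LINC01511, SLC29A1, GEMIN4 and BYSL, among 11932 genes above the median signal. Their Euclidean distances were 0.12 to 0.14 on the log2 scale, and their log2 changes were -1.31 to -1.46. SLC29A1, a nucleoside transporter gene, had signals of 635 and 496 with NC1153, against 1556 and 1536 with DMSO. WNT8A had the lowest signals of these genes, with 36.9 and 36.2 with NC1153 and 99.99 and 92.3 with DMSO, and was not called (adjusted p = 0.40). Likeness over 4 arrays is mostly a like difference between the groups.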

How the data were processed

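The main values were the deposited intensities of 54675 probe sets on a linear scale, to which log2 was applied with no pseudocount. The software that made them is not given in the sources used here. A second deposited table holds RMA log2 values of 2252 probe sets, which the authors chose by limma and a Storey q-value limit of 0.05, per the file header, and lists raw p-values. It served as a comparison.

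Samples were grouped by title. The difference NC1153 minus DMSO was tested two-sided with limma 3.58.1 in R 4.3.3 (lmFit, then eBayes with a trend) over the 54613 probe sets that are no controls, with 2 residual and 7.27 prior degrees of freedom. The fit was checked on simulated data drawn from its own variance model, which cannot test that model or the centring. Gene names came from the annotation of the platform and current RefSeq symbols: 41091 probe sets had 1 gene, 1801 several and 11721 none. Of 129 entries in 11 gene lists, 114 were measured. In each list up to 4 called genes with the smallest p were named, or the 2 with the largest change where none was called; genes named beyond this (MCM5, PRAME, DNMT3L, the markers) were chosen after their values were seen. The members and lists were chosen with earlier results of these data known.

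In the file header, the array names of both replicate 1 samples carry one number and those of both replicate 2 samples another, with no meaning stated. Residuals of arrays that share a replicate number had r = 0.055 (all probe sets) and 0.12 (the 27307 brighter ones). The replicate number was therefore a block in an alternative fit only, and differences within each replicate are given. The other alternatives were no variance trend, other centring, quantile normalization, log2(signal + 50), a filter on dim probe sets, the choice of probe set and leaving out each array. In the fits without a DMSO array the prior degrees of freedom were infinite. Those fits took the variance from the trend alone and ignored each probe set's own spread. The number of arrays limits precision.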

Additional observations from a re-analysis of the deposited data

How the results depend on the processing

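The member calls depended most on the variance model and the centring. With no variance trend limma called 0 of the 15 probe sets lower (3 at an unadjusted p under 0.05) and 0 in the whole array. With each array centred on its median it also called 0 lower (3 unadjusted), with 24 lower and 23 higher in the whole array. Median signals were 88.6 and 61.8 on NC1153 arrays 1 and 2, and 69.7 and 69.5 on DMSO arrays 1 and 2. Median centring therefore shifts the 2 NC1153 arrays by unlike amounts. The cause of the lost calls was not tested. The median-centred changes were -1.53 for UHRF1, -0.98 for DNMT1 and -1.22 for TET1 (adjusted p = 0.095, 0.36 and 0.32). Spike-in centring, quantile normalization and log2(signal + 50) kept 3 lower and 0 higher, though spike-in centring gave 1019 lower and 85 higher in the whole array. With the replicate block 3 were lower (UHRF1 adjusted p = 8.9e-07, DNMT1 0.00025, TET1 0.0071) and 1 higher, DNMT3A, against 1936 lower and 2061 higher in the whole array. The fit of the 27307 brighter probe sets also gave 1 higher, against 1587 lower and 1722 higher among them. Leaving out 1 array each gave 2 lower (TET1 lost) and 0 higher, against 643 to 1429 lower and 487 to 1197 higher in the whole array; a lone array is then assumed to vary like the other group.

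Signs turned for probe sets that were not called. With spike-in centring TET2 was at -0.19 (brightest probe set) and -0.029 (second), and the dimmest of TET3 at -0.30. With log2(signal + 50) the dimmest of TET2 was at 0.082. Leaving out 1 array gave -0.22 to 0.086 for DNMT3B, -0.16 to 0.039 for UHRF2, -0.24 to 1.04 and -2.01 to 1.43 for the second and the dimmest of TET2, and -1.30 to 1.56 for the dimmest of TET3. Fitted over 1 value per gene, the mean of all probe sets gave DNMT3A 1.57 (adjusted p = 0.15) and TET1 -1.62 (0.20), where the brightest gave 0.82 (0.033) and -1.13 (0.016).

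For the lists (median centring and leaving out arrays were added after seeing the data), median centring left 0 genes called in each. Spike-in centring left 0 higher among TET partners, donors and S phase genes and gave 1 T cell marker lower. The block gave 1 reader higher, 2 donor genes lower and 3 higher, and 2 T cell markers lower. Leaving out 1 array gave 1 to 3 partners lower, 1 to 4 base excision genes lower, 1 to 2 TET partners lower and 1 higher, 0 to 2 donor genes lower and 0 to 2 higher, 5 to 8 S phase genes lower and 0 to 1 higher, and 0 to 1 T cell markers lower.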
